A study of Mus musculus with 8 samples.

Results

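Genes of the unfolded protein response and of the ATF4 amino-acid response were examined in Lats2-deficient mouse embryonic fibroblasts (MEFs). The group was a fixed list of 43 gene names, and a gene counted as measured when a gene probe of the array carried its name. Of 27745 gene names on the array, 38 were on this list, and all 38 had a probe above the filter on dim signals, as had 14792 gene names in all. Of the 5 listed names that the array did not carry, Dnajc3, Manf, Ppp1r15a and Sel1h were found under other names of the same genes (Dnajc3a, Armet, Myd116 and Sel1l), and Tra1 is an older name of Hsp90b1, which was measured.

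The MEFs were Lats2-/- cells and Lats2+/+ cells of strain C57BL/6J, kept without treatment in DMEM with fetal bovine serum. Lats2 encodes a kinase of the Hippo pathway, and the knockout cells came from earlier work, with the age of the embryos not given in the sources used here. Clone names paired 1 extract of each genotype under each of the numbers 112, 116 and 121, and because the study compared knockout cells with littermate controls these numbers are called litters here. Both extracts of a litter were hybridised together on 2-colour Agilent arrays with the dyes swapped, on 2 arrays each for litters 112 and 116 and on 4 arrays for litter 121. Each genotype of a litter was 1 clone name, so a difference between genotypes also carries any difference between these cultures.

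The unfolded protein response is the reaction of a cell to misfolded protein in the endoplasmic reticulum (ER). Its sensors are IRE1, which makes the active form of XBP1 by splicing, ATF6, which is cut to release a transcription factor, and PERK, which phosphorylates eIF2alpha and so raises the translation of ATF4. XBP1 and ATF6 raise chaperones and degradation factors of the ER, whereas ATF4, which is also reached from amino-acid shortage through the kinase GCN2, raises genes of amino-acid synthesis, uptake and tRNA charging.

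Promoter sequence was not used in the choice of genes, and its motifs are given as a description, with no test of the difference between branches. RefSeq windows on build GRCm38.p6, from 250 bases before to 50 bases after a transcription start, were found for 36 of 42 genes, with Hsp90b1 and Tra1 as 1 gene. The ER stress response element, CCAAT followed after 9 bases by CCACG on either strand, was present in 7 of the 12 matched ER chaperones and folding enzymes (Calr, Canx, Creld2, Dnajc3, Hsp90b1, Hspa5 and Pdia6) and in Syvn1, against 0.119% of all 32851 windows. None of the 11 matched ATF4 amino-acid genes held it. The C/EBP-ATF response element, TGATGNAA on either strand (TTNCATCA on the other), was present in 4 of those 11 genes (Aars, Asns, Gars and Pck2), in 3 of 6 stress effectors (Chac1, Nupr1 and Trib3), in Herpud1 and in none of the 12 chaperones, against 3.97% of all windows. Neither element was in the windows of 5 of the 12 chaperones and 7 of the 11 amino-acid genes. The unfolded protein response element TGACGTGG was in none of the members' windows and in 0.676% of all windows. In these windows no copy of one motif overlapped a copy of another. A match describes these letters in this window only, and genes with a second start site were counted once. Of the 7 members lower at an unadjusted p under 0.05 (given with the results), Asns and Trib3 held the C/EBP-ATF response element, and no motif was found in the windows of Mthfd2, Phgdh, Psat1, Psph and Shmt2. Example windows, of 2 chaperones and of 3 ATF4 target genes with the element, are printed 5′ to 3′ on the strand of the gene, with the motif copies in capitals.
Hspa5, chr2:34771840-34772139, plus strand: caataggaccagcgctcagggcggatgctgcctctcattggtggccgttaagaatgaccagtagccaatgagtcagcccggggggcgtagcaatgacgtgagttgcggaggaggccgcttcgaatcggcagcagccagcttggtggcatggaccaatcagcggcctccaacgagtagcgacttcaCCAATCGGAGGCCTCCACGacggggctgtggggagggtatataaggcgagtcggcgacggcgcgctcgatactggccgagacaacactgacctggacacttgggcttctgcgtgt
Hsp90b1, chr10:86705395-86705694, minus strand: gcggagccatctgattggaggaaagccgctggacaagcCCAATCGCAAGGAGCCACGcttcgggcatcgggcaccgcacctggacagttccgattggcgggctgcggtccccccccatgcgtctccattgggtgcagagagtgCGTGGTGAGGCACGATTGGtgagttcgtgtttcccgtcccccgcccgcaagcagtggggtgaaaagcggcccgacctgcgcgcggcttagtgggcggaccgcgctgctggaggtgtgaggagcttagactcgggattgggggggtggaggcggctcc
Asns, chr6:7693160-7693459, minus strand: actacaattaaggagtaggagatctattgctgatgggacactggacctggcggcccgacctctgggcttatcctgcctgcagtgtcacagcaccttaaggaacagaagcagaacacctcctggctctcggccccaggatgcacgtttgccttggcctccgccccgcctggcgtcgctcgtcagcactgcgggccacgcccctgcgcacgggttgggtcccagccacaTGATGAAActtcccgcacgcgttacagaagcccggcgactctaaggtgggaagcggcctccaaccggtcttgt
Trib3, chr2:152344011-152344310, minus strand: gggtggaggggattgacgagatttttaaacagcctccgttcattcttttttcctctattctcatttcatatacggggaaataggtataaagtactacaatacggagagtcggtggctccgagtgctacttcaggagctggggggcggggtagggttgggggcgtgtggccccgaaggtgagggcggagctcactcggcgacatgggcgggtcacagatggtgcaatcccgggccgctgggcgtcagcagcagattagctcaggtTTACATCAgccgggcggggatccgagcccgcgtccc
Chac1, chr2:119350992-119351291, plus strand: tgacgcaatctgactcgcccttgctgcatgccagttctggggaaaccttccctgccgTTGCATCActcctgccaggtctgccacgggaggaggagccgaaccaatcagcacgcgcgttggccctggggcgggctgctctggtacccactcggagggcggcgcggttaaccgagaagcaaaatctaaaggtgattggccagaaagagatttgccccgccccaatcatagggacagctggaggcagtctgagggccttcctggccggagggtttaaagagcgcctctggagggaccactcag
In Hspa5 and Hsp90b1 the capitals mark the ER stress response element, present once in Hspa5 and on both strands in Hsp90b1. In Asns, Trib3 and Chac1 they mark the C/EBP-ATF response element, on the strand of the gene in Asns and on the opposite strand in the other windows.

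Facts of the arrays that bear on every value were as follows. On an array, the share of gene probes well above background lay between 52.9% and 61.3% for either genotype. Lats2 was read first as a check of the labels. Its probe A_52_P425064 was lower in Lats2-/- on 8 of 8 arrays and read -1.33 in litter 112, -1.05 in litter 116 and -0.56 in litter 121 as log2 ratios, while the other 3 probes were lower in litters 112 and 116 and higher in litter 121, by 0.80 to 1.17. Which part of the gene is deleted is not given in the sources used here, so counts are also given without litter 121. Of the fibroblast markers, 8 of 9 were well above background in all 6 extracts, but their median log2 ratio moved from 0.13 and 1.84 in litters 112 and 116 to -1.13 in litter 121. In that litter Pdgfra (-4.96), Thy1 (-3.66), S100a4 (-3.61) and Col3a1 (-3.42) were the lowest of the 9, and the Lats2-/- extract had a Pdgfra signal of 6.30 against 11.26 in Lats2+/+. Skeletal muscle markers were above background in no extract (5 of 5), and neither were Cdh5, Pecam1 and Tie1 of 5 endothelial, Emr1, Itgam and Ptprc of 7 macrophage, Gfap, Neurod1 and Sox2 of 4 neural and Tacstd1 of 6 epithelial markers. Other genes of these lists were above it, with Cd14, Lyzs, Tubb3 and Krt5 in 6 of 6 extracts, Tek and Krt14 in 5 and Cd68 in 4. Lyzs read 0.05, 0.95 and 3.40 in the 3 litters, Cd14 read -0.60, -1.64 and -0.74, and Cdh1 was above background in 1 extract and read 1.09 in litter 121. The 15 proliferation genes measured had medians of -0.58, -0.73 and 0.27 in the 3 litters. Bulk RNA does not tell fewer cells with a transcript from less transcript in each cell.

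Values below are log2 ratios of Lats2-/- over Lats2+/+, averaged over the arrays of a litter, so that each litter gave 1 value and n was 3. They are listed in the order of litters 112, 116 and 121, and negative values mean a lower signal in Lats2-/-. A gene was represented by its brightest probe above the filter. The test was limma's moderated test of the 3 litter ratios against 0, two-sided, fitted over all 22644 probes and adjusted by Benjamini-Hochberg.

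No member passed the adjusted threshold of 0.05, and neither did any other gene (0% of 14792), with a smallest adjusted p of 0.634 in limma. At an unadjusted limma p under 0.05, 7 of the 38 measured members were lower in Lats2-/- (Asns, Mthfd2, Phgdh, Psat1, Psph, Shmt2 and Trib3), where 3.45% of all genes were lower. None of the 38 was higher at that threshold, where 4.14% of all genes were. Without litter 121 the same 7 members were lower at that threshold, against 3.54% of all genes. The sign was negative in all 3 litters for 9 of 38 members, these 7 with Sars and Slc7a5, against 14.1% of all genes. It was positive in all 3 litters for Pdia3 and Syvn1, 2 of 38, against 15.9% of all genes. In litter 121 the arrays of Pdia3 ran from -0.06 to 0.07, and in litter 112 those of Syvn1 ran from -0.11 to 0.32. The signs there were not larger than the spread of the arrays. Where that threshold was joined with a difference of 2-fold or more, the size that the study's methods ask for, Shmt2 and Trib3 were lower, 2 of 38 against 0.25% of all genes, and no member was higher, against 0.838%. The count of members lower by that rule changed with the setting. It was 4 (Mthfd2, Psph, Shmt2 and Trib3) with processed signals, against 1.01% of all genes, and with the deposited value table, against 0.987%. Without litter 116 it was also 4 (Atf5, Nupr1, Psat1 and Trib3, against 0.379%), with Shmt2 at a mean of -0.94. It was 3 (Psph, Shmt2 and Trib3) without litter 112, against 0.73%, without litter 121, against 0.602%, and with median centring, against 0.318%. With the test that the methods name, Shmt2 was left, against 0.0744%, as it was without the pairing by litter, against 0.162%. With slide as a random block Trib3 was left, against 0.805%. The 7 genes were 6 enzymes of amino-acid and folate metabolism and the pseudokinase Trib3, and no ER chaperone was among them.

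**Figure D1:**
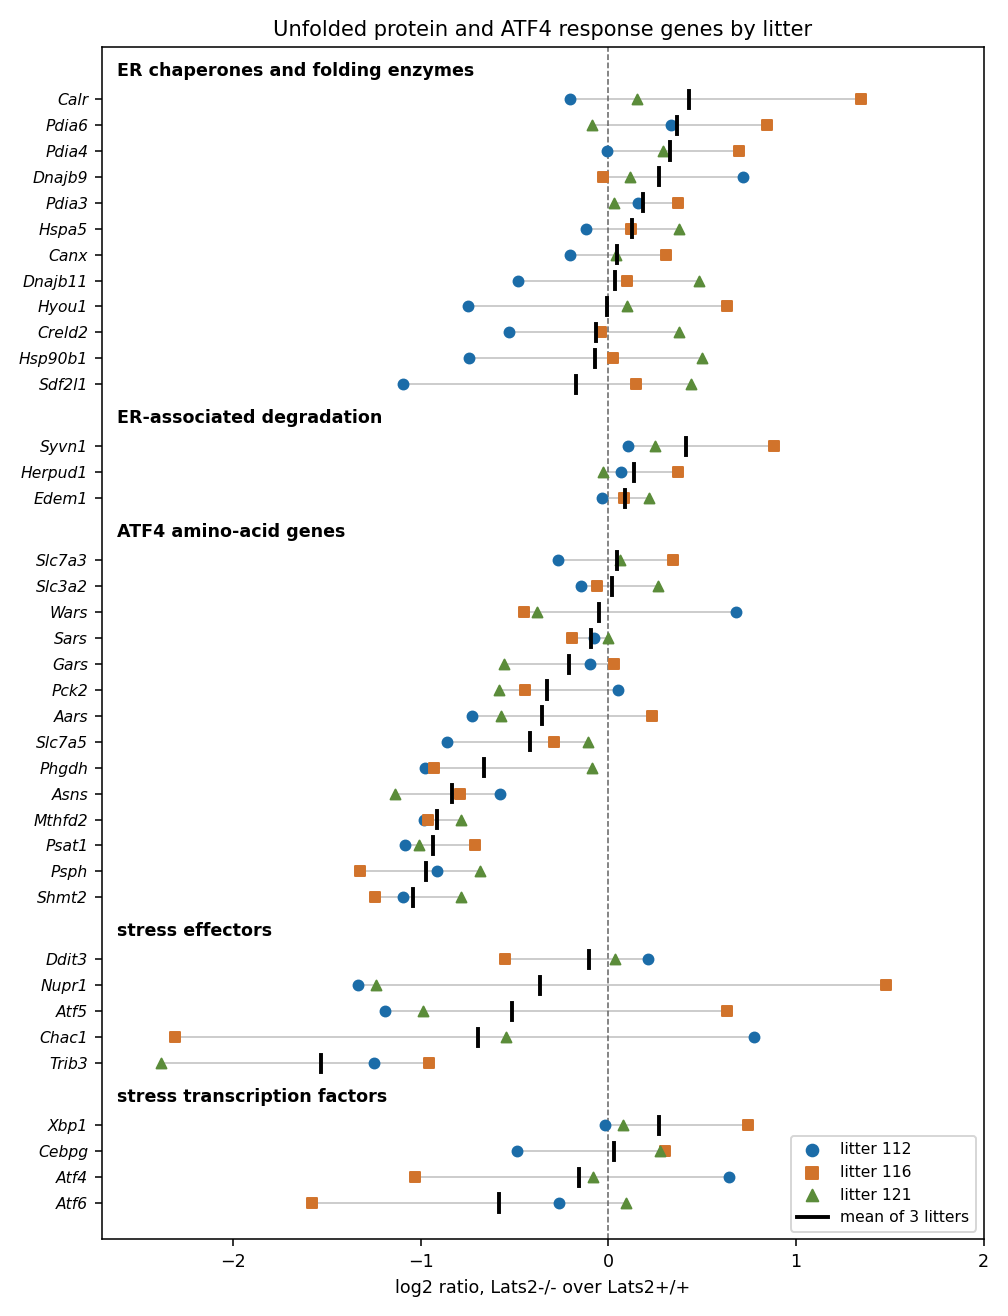
Log2 ratio of Lats2-/- over Lats2+/+ (x axis) for the 38 measured members (rows), grouped by role and sorted by mean, with 1 symbol per litter and a black bar at the mean of the 3 litters. The ER chaperones lie on both sides of 0, while the lower rows of the ATF4 amino-acid genes lie left of 0 in every litter.

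The comparison of the branches was made within each litter. The 12 ER chaperones and folding enzymes measured had median log2 ratios of -0.21, 0.23 and 0.22, a mean of 0.08 ± 0.25 (SD, n = 3). The 14 ATF4 amino-acid genes had medians of -0.65, -0.45 and -0.57, a mean of -0.55 ± 0.10 (SD, n = 3). Over all 14792 genes the medians were 0.02, 0.01 and 0.01. The amino-acid median lay below the chaperone median in each litter, by 0.44, 0.67 and 0.79, a mean difference of 0.63 ± 0.17 (SD, n = 3). The chaperone median changed sign between litters and the amino-acid median did not. Within slide 1, which held litters 112 and 116, the difference was 0.56, and within slide 2, which held litter 121, it was 0.79. These medians are descriptions of listed genes, given without a test. Of the 14 amino-acid genes, 12, 11 and 12 were lower in Lats2-/- in the 3 litters, and of the 12 chaperones 9, 2 and 1 were, where 47.7%, 49.3% and 49.1% of all genes were.

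**Figure D2:**
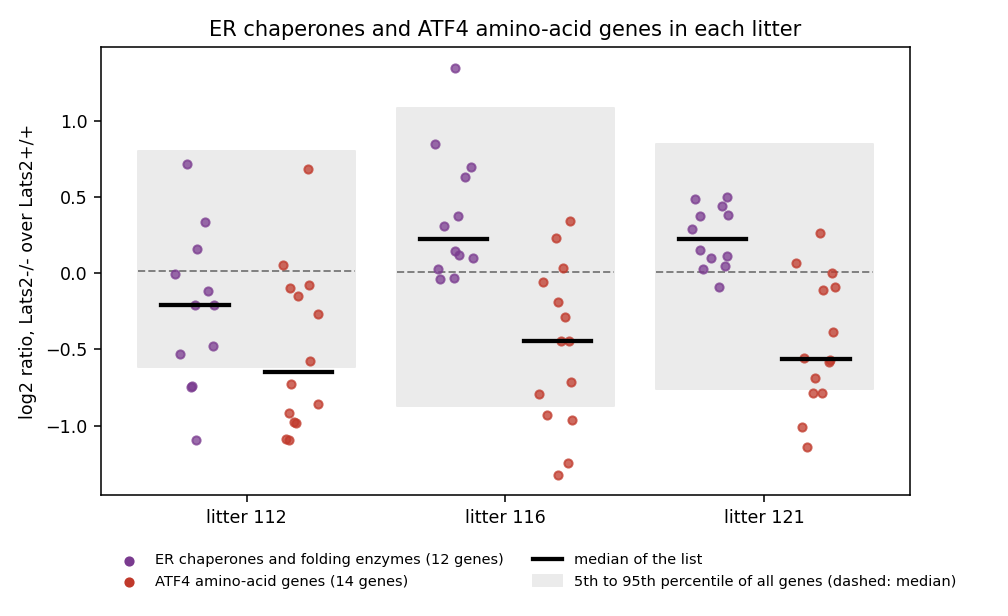
Log2 ratios (y axis) of the 12 ER chaperones and folding enzymes (purple) and the 14 ATF4 amino-acid genes (red) in each litter, with black bars at the list medians, a grey band from the 5th to the 95th percentile of all genes and a dashed line at their median. The red bar is below the purple bar in all 3 litters, by 0.44 to 0.79, and the purple bar is below 0 in litter 112 only.

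Of the 7 genes, 5 encode enzymes of serine and glycine synthesis and of the mitochondrial folate cycle. These 5 enzymes were grouped after their values had been seen and without a test, and their medians were -0.98, -0.96 and -0.79 in the 3 litters. Phgdh encodes the dehydrogenase that takes the first step from glycolysis into serine. Its brightest probe (mm8, chromosome 3, 98398580 to 98398639, minus strand) had log2 signals of 13.05, 14.01 and 14.24 in Lats2-/- and of 14.03, 14.94 and 14.33 in Lats2+/+. The ratios were -0.98, -0.93 and -0.09, so the difference of litters 112 and 116 was nearly absent in litter 121, where 2 of 4 arrays gave a higher signal in Lats2-/-. The mean of -0.67 ± 0.50 (SD, n = 3) had an adjusted p of 0.711 in limma, and the other probes of Phgdh gave means of -0.62 and -0.60. Phgdh was no longer past the unadjusted p of 0.05 in 7 of 16 alternatives. Among them were the processed signals, the deposited value table, no filter on dim probes and leaving out litter 112 or 116. The 16 include the values within slide 2, which held only litter 121 and had no p.

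Psat1, the transaminase of the next step, was measured by 1 probe (mm8, chromosome 19, 15972499 to 15972558, minus strand). Its log2 signals were 10.31, 11.76 and 9.69 in Lats2-/- and 11.40, 12.48 and 10.70 in Lats2+/+. Within every litter the Lats2-/- extract was the dimmer of the pair, and across litters the genotypes overlapped, since litter 116 was brighter than the others in both. The ratios of -1.09, -0.71 and -1.01 gave a mean of -0.93 ± 0.20 (SD, n = 3), 52.3% of the wild-type level (limma, adjusted p = 0.645).

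Psph, the phosphatase that releases serine, had log2 signals of 10.05, 11.41 and 10.57 in Lats2-/- and of 10.97, 12.73 and 11.25 in Lats2+/+ (mm8, chromosome 5, 130080276 to 130080335, minus strand). The ratios were -0.91, -1.32 and -0.68, with a mean of -0.97 ± 0.32 (SD, n = 3; limma, adjusted p = 0.711). All 8 arrays gave a lower signal in Lats2-/-, although Psph had the widest range among members over the arrays of a litter, up to 0.62. The second Psph probe gave the same mean of -0.97.

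Shmt2, the mitochondrial enzyme that turns serine into glycine and a one-carbon unit, had log2 signals of 11.00, 11.58 and 10.69 in Lats2-/- and of 12.10, 12.83 and 11.47 in Lats2+/+ (mm8, chromosome 10, 126920704 to 126920763, minus strand). Its ratios of -1.09, -1.25 and -0.79 gave a mean of -1.04 ± 0.23 (SD, n = 3; limma, adjusted p = 0.645), or 48.6% of the wild-type level.

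Mthfd2, which carries the one-carbon unit onward in mitochondria, had log2 signals of 8.68, 9.84 and 9.26 in Lats2-/- and of 9.67, 10.80 and 10.05 in Lats2+/+ (mm8, chromosome 6, 83272182 to 83272241, minus strand). The ratios of -0.98, -0.96 and -0.79 were close to each other, with a mean of -0.91 ± 0.11 (SD, n = 3). Its adjusted limma p of 0.634 was the smallest among the members.

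Asns, the asparagine synthetase whose promoter is printed above, is a standard readout of ATF4. Its log2 signals were 11.90, 13.31 and 12.10 in Lats2-/- and 12.48, 14.10 and 13.23 in Lats2+/+ (mm8, chromosome 6, 7625194 to 7625253, minus strand). The difference within the pair was smallest in litter 112 and widest in litter 121, with ratios of -0.57, -0.79 and -1.14. The mean of -0.83 ± 0.28 (SD, n = 3) was 56.1% of the wild-type level (limma, adjusted p = 0.711).

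Trib3 encodes a pseudokinase that ATF4 induces and that feeds back on it. The brightest probe (mm8, chromosome 2, 152029060 to 152029119, minus strand) had log2 signals of 7.91, 11.07 and 8.64 in Lats2-/- and of 9.16, 12.03 and 11.03 in Lats2+/+. The genotype ranges overlapped because wild-type extracts alone differed by 2.86 between litters. Its ratios of -1.25, -0.96 and -2.38 gave the lowest mean of all members, -1.53 ± 0.75 (SD, n = 3; limma, adjusted p = 0.711), or 34.6% of the wild-type level. A second Trib3 probe read -0.58, -0.88 and -1.33, a mean of -0.93, so the probes shared the sign and differed in size by more than 1 in litter 121.

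**Figure D3:**
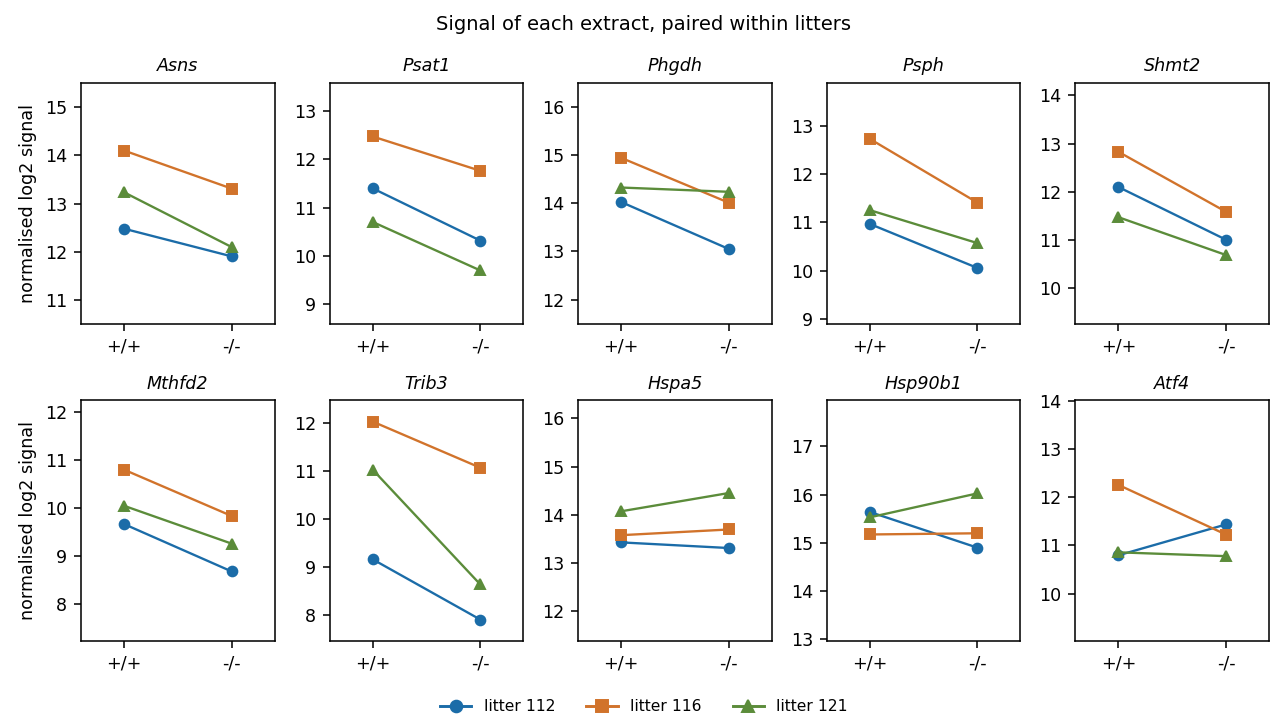
Normalised log2 signal (y axis, the same span of 5 units in each panel) of the Lats2+/+ and Lats2-/- extracts of each litter for the 7 members at an unadjusted limma p under 0.05 and for Hspa5, Hsp90b1 and Atf4, with lines joining the extracts of a litter. Lines slope down in all 3 litters for the 7 genes, nearly flat in litter 121 for Phgdh, and run in different directions for Hsp90b1 and Atf4.

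The other ATF4 amino-acid genes differed less or not in 1 direction. Slc7a5, the light chain of the large neutral amino-acid transporter, read -0.86, -0.29 and -0.11, a mean of -0.42 ± 0.39 (SD, n = 3; limma, adjusted p = 0.726). Its partner Slc3a2 read -0.15, -0.06 and 0.27. Slc7a3, a cationic amino-acid transporter, was the dimmest of the 14, with log2 signals between 7.19 and 7.67, and read -0.27, 0.34 and 0.06. Pck2, the mitochondrial phosphoenolpyruvate carboxykinase, read 0.05, -0.45 and -0.59. Among tRNA synthetases, Aars read -0.73, 0.23 and -0.57, Gars read -0.10, 0.03 and -0.56, and Wars read 0.68, -0.45 and -0.38. A second Aars probe read -0.66, 0.19 and -0.68, while a dimmer one read 0.15, -0.12 and -0.14, with the other sign in litters 112 and 116. Sars read -0.08 and -0.19 in litters 112 and 116 and -0.00074 in litter 121, where its arrays ran from -0.10 to 0.10, so that its sign there was not larger than the spread of its arrays. None of these 8 genes had an unadjusted limma p under 0.05.

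None of the 12 ER chaperones and folding enzymes was below that p in either direction, where 3.45% of all genes were lower and 4.14% higher, so a count of 0 among 12 is near the background. Hspa5 encodes BiP, the main chaperone of the ER and the usual marker of the unfolded protein response. Its log2 signals were 13.31, 13.69 and 14.45 in Lats2-/- and 13.42, 13.57 and 14.07 in Lats2+/+, and the ratios of -0.12, 0.12 and 0.38 spanned 0 (mean 0.13 ± 0.25, SD, n = 3; limma, adjusted p = 0.862). That mean became 0.00062 without litter 121 and 0.25 without litter 112. Hsp90b1, the ER member of the HSP90 family, had ratios of -0.74, 0.02 and 0.50. Its mean of -0.07 ± 0.63 (SD, n = 3) became 0.26 without litter 112.

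Calr and Canx, the lectin chaperones that fold glycoproteins, both had their highest ratio in litter 116. Calr read -0.21, 1.35 and 0.15, with a mean of 0.43 ± 0.81 (SD, n = 3; limma, adjusted p = 0.81) that became -0.03 without litter 116. Canx read -0.21, 0.31 and 0.04. Sdf2l1, a small ER stress-induced partner of BiP, read -1.10, 0.15 and 0.44, and its mean of -0.17 became 0.29 without litter 112. The signs of these 4 means, of Calr, Canx, Hsp90b1 and Sdf2l1, therefore rested on 1 litter each.

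The remaining chaperones followed in the same range. Hyou1 (-0.75, 0.63 and 0.10), Creld2 (-0.53, -0.04 and 0.37) and Dnajb11, a cofactor of BiP (-0.48, 0.10 and 0.49), were lowest in litter 112. Dnajb9, another cofactor, was instead highest there at 0.72, with -0.03 and 0.12 in the other litters. The disulfide isomerases had means of 0.19 for Pdia3, 0.33 for Pdia4 and 0.36 for Pdia6, each with its highest ratio in litter 116. Without that litter these means were 0.09, 0.14 and 0.12. The other Pdia6 probes gave means of 0.40, 0.03 and 0.22. Under their other names, Dnajc3 had a mean of 0.11 and Manf one of -0.11, and with both added the chaperone list had a median of 0.08 over 14 genes.

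Of the ER-associated degradation factors, Syvn1, the ubiquitin ligase HRD1, read 0.11, 0.88 and 0.25, a mean of 0.41 ± 0.41 (SD, n = 3; limma, adjusted p = 0.733). A second Syvn1 probe, with log2 signals between 6.42 and 6.55, read 0.02, 0.12 and -0.03. Herpud1, which recruits components to that ligase, read 0.07, 0.37 and -0.03. Edem1, which extracts misfolded glycoproteins, read -0.03, 0.08 and 0.22. Its other probes read -0.20, 0.89 and 0.09, and -0.22, 0.06 and 0.10, so they differ in size in litter 116. Sel1h, measured as Sel1l, read 0.49, 0.36 and -0.26.

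The stress transcription factors themselves gave no uniform ratio. Atf4 had log2 signals of 11.43, 11.22 and 10.78 in Lats2-/- and of 10.79, 12.26 and 10.86 in Lats2+/+ (mm8, chromosome 15, 80083904 to 80083963, plus strand). Its ratios were 0.64, -1.03 and -0.08, with a mean of -0.16 ± 0.84 (SD, n = 3; limma, adjusted p = 0.944) that became 0.28 without litter 116. The array measures Atf4 mRNA, whereas the response acts on its translation, which was not measured here.

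Atf6 read -0.27, -1.58 and 0.09, with a mean of -0.58 ± 0.88 (SD, n = 3; limma, adjusted p = 0.768), and a second probe gave -0.55. Without litter 116 the mean was -0.09, and the second probe also had its lowest ratio in that litter, -1.37. Xbp1 read -0.02, 0.75 and 0.08. Cebpg, a partner of ATF4 on DNA, read -0.49, 0.30 and 0.27 on its brightest probe, while its other probes read -0.22, -0.36 and 0.30, and -0.25, -0.0222 and 0.05. The Cebpg probes differ in sign in litter 116. The spliced form of Xbp1 is not told apart by these gene values.

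Among the stress effectors, Nupr1 and Chac1 had the widest spread of all members over litters, with SDs of 1.60 and 1.55. Chac1, a glutathione-degrading enzyme induced by ATF4, had log2 signals of 10.59, 11.12 and 10.32 in Lats2-/- and of 9.81, 13.43 and 10.86 in Lats2+/+, and read 0.78, -2.31 and -0.55. The wild-type extract of litter 116 was the brightest by far. Nupr1, a small stress-induced nuclear protein, read -1.34, 1.48 and -1.24, and Atf5, a factor whose mRNA ATF4 raises, read -1.19, 0.63 and -0.99. Litter 116 had the opposite sign to the other litters in both. Ddit3, which encodes the pro-apoptotic factor CHOP, read 0.21, -0.55 and 0.03, and Ppp1r15a, measured as Myd116 and encoding the phosphatase subunit GADD34, read 1.02, -0.67 and 0.77. For Chac1, Ddit3, Ppp1r15a and Atf4 alike, litter 116 gave the lowest ratio. None of these effectors had an unadjusted limma p under 0.05 over the 3 litters.

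Arrays of 1 litter repeat the same extracts. The range of a member's ratio over the arrays of a litter had a median of 0.12, 0.11 and 0.15 in litters 112, 116 and 121, and its largest value was 0.62. Across the 38 members the litter ratios correlated with r = -0.03 for litters 112 and 116, 0.42 for litters 112 and 121 and 0.32 for litters 116 and 121, against 0.13, 0.06 and -0.0028 over all genes. Genes are not independent replicates, so these coefficients only describe the members.

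The other genes of both branches, from separate lists, were read in the same fit. These lists too were chosen with earlier results of these data known, so their counts are descriptions. Of 38 further ATF4 and amino-acid response genes, 34 had a probe above the filter, and their median mean ratio was -0.30, against 0.01 over all genes. Of the 34, 29 had a negative mean, against 47.1% of all genes, and 18 were lower in all 3 litters, where 14.1% of all genes were. At an unadjusted limma p under 0.05, 10 were lower (Cth, Iars, Mars, Shmt1, Slc1a4, Slc38a2, Stc2, Tars, Xpot and Yars), against 3.45% of all genes, and none was higher. Without litter 121 the counts were 9 lower, all among these 10, against 3.54% of all genes, and 1 higher, against 3.97%. The higher gene was Sesn2, which is named because the count is small. Of 45 further ER stress genes, 41 had a probe above the filter, with a median mean ratio of 0.17. Among the 41, 10 had a negative mean, against that 47.1%, 11 were higher in all 3 litters, against 15.9% of all genes, and 4 were lower in all 3, against 14.1%. None of the 41 was lower at that p, and Creb3l1 and Creb3l2, ER-anchored transcription factors, were higher at it, 2 of 41 against 4.14% of all genes. Armet and Sel1l stand in this list as well as among the members.

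Cth, the cystathionine gamma-lyase that makes cysteine, read -0.93, -2.40 and -1.58, a mean of -1.64 ± 0.74 (SD, n = 3; limma, adjusted p = 0.711). Stc2, a secreted glycoprotein induced by ATF4, read -0.81, -2.12 and -0.84. Xpot, the exporter of tRNA from the nucleus, read -0.84, -0.90 and -0.76, a mean of -0.83 ± 0.07 (SD, n = 3; limma, adjusted p = 0.634). Of the tRNA synthetases, Mars, Tars and Iars had means of -0.69, -0.77 and -0.60, all lower in all 3 litters. Shmt1, the cytosolic counterpart of Shmt2, had a mean of -0.68, and Slc1a4, a carrier of alanine and serine, one of -0.69. Of the 5 further ATF4 and amino-acid response genes with a positive mean, Atf3 had the highest, 1.13, and read 3.36, -1.29 and 1.31. Creb3l1 was higher by 0.25, 0.56 and 0.69, a mean of 0.50 ± 0.23 (SD, n = 3; limma, adjusted p = 0.711). The sensor kinases read -0.14, -0.27 and -0.11 for Ern1 (IRE1), 0.23, 0.56 and 0.04 for Eif2ak3 (PERK) and 0.07, -0.81 and -0.02 for Eif2ak4 (GCN2).

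**Figure D4:**
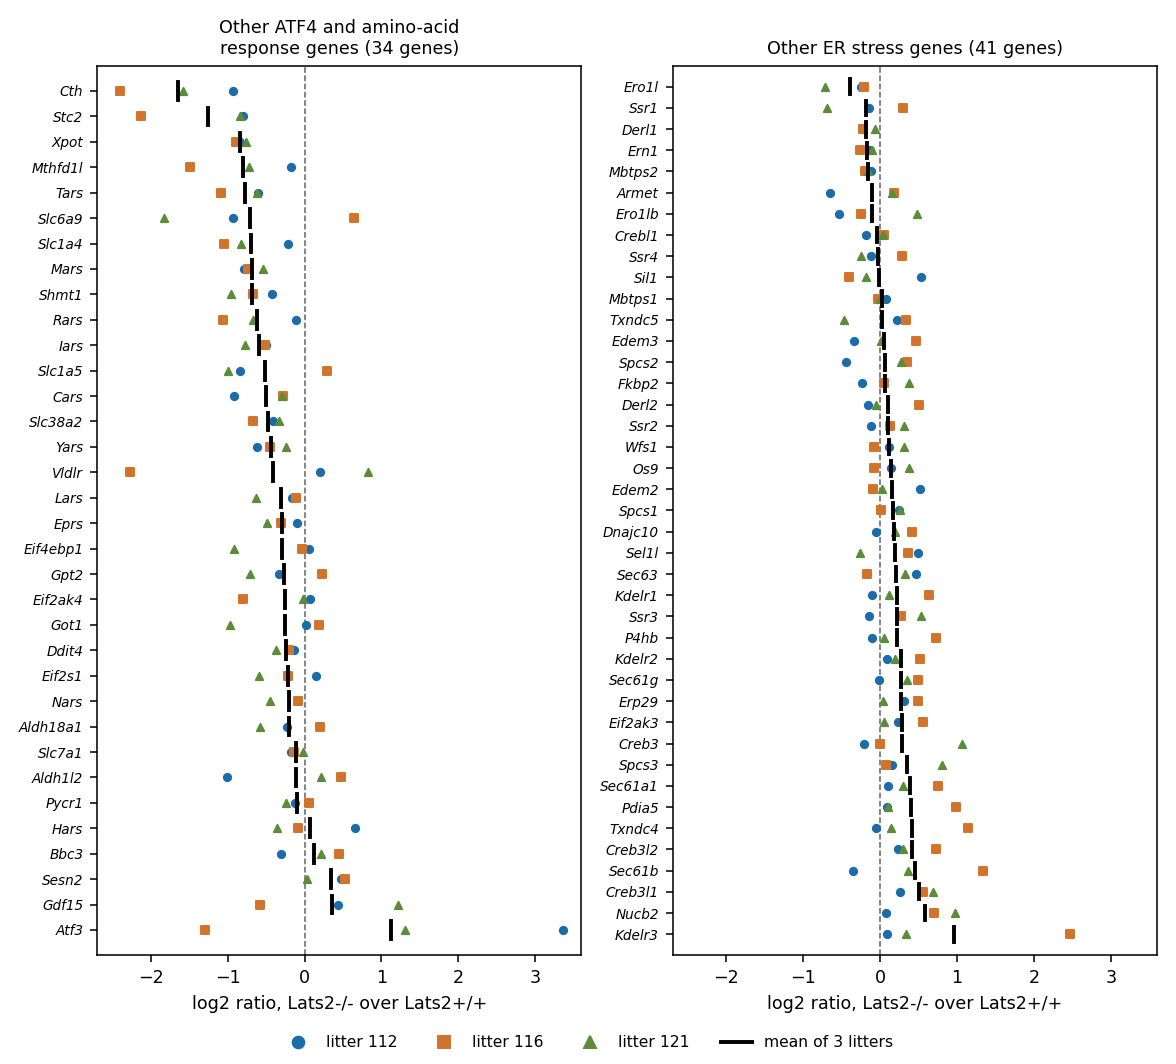
Log2 ratio of Lats2-/- over Lats2+/+ (x axis) for 34 further ATF4 and amino-acid response genes (left) and 41 further ER stress genes (right), sorted by mean, with 1 symbol per litter and a black bar at the mean of the 3 litters. On the left 29 of 34 bars are below 0, and on the right 10 of 41 are, where 47.1% of all genes have a mean below 0.

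Proliferation genes had lower values in 2 of the 3 litters, and their part in the result was not tested. Their medians of -0.58 and -0.73 in litters 112 and 116 went with amino-acid medians of -0.65 and -0.45, whereas in litter 121 proliferation genes had a median of 0.27 and amino-acid genes one of -0.57. The fibroblast marker median was 1.84 in litter 116 and -1.13 in litter 121, where the amino-acid median was -0.45 and -0.57. Summed over its 9 genes, the linear fibroblast signal was between 245400 and 553552 in Lats2-/- extracts and between 373891 and 612398 in Lats2+/+ extracts. For the 7 macrophage markers the sums were 838 to 3956 and 920 to 2322. These ranges run across litters and do not keep the pairs, so they do not show the difference within a litter. In litter 121 the macrophage marker Lyzs had log2 signals of 11.76 in Lats2-/- and 8.36 in Lats2+/+, while Cd14 had 7.09 and 7.82. The part of either list in the result was not tested. Each limma p-value sets the mean of 3 litters of 1 pair each against a spread moderated over all probes. The number of litters limits its precision.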

How the data were processed

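The authors hybridised 6 extracts to 8 arrays (Agilent design 14868) and ran Feature Extraction, version 10.5.1.1 per the submitters' processing notes (the headers name 10.7.3.1). Linear intensity per spot stands in the deposited scanner files, and the log10 ratio of red over green after background subtraction and dye normalization by the authors' software. The deposited value table holds the same log10 ratios, and with arrays where the label gives Lats2-/- as Cy3 turned it matched the scanner ratios on all 8 arrays, so its scale and centring were settled. The direction rests on the dyes in the labels. Mean intensities were corrected with normexp (offset 50) and loess within arrays in limma 3.58.1 under R 4.3.3, leaving out control spots and 860 outlier spots, and none of the 43379 gene spots was saturated. Repeat spots were averaged, then all arrays of 1 litter. Extract signals are log2 values after loess and Aquantile. A probe was kept if well above background in at least 2 of 3 extracts of either genotype, an extract needing more than a 0.5 share of its arrays. Pairing is within arrays and clone numbers. Probe positions are mm8 per the file headers, and no annotation of that build was used, so exons are not named. Promoters came from RefSeq (GRCm38.p6). The code was tested on simulated data. The members named were 17 listed ones. Added to them was any member with an unadjusted p under 0.05, with a ratio of 1 or more in a litter or with disagreeing probes. Further genes were named with such a p and a mean that rounded to 0.5 or more in size. Genes behind a count, Atf3 and the sensor kinases Ern1, Eif2ak3 and Eif2ak4 were named besides. Other members are given so that all are accounted for. Members and lists were chosen with earlier results of these data known. The authors' own comparison columns were not used.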

Additional observations from a re-analysis of the deposited data

How the results depend on the processing

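Background offset, processed signals, the deposited value table, median centring, filters on dim probes, probe choice and updated names left between 6 and 7 members lower at an unadjusted limma p under 0.05, and the methods' t-test left 5 (Asns, Mthfd2, Psat1, Psph and Shmt2, against 2.9% of all genes), with 0 after Benjamini-Hochberg adjustment. The limma settings with a fit of their own had between 3.14% and 5.66% of all genes lower. With each litter left out the count ranged from 7 to 9. Without litter 112 it lost Phgdh and gained Pck2 (7, against 2.7% of all genes), without litter 116 it lost Phgdh and gained Aars, Atf5 and Nupr1 (9, against 2.58%), and without litter 121 it held the same 7 (against 3.54%). Processed signals, the deposited value table and no filter on dim probes also lost Phgdh, as did the t-test, which lost Trib3 too. With no replicate block, which drops the pairing by litter, the count was 1 (Shmt2), against 1.33% of all genes. With slide as a random block over the 8 arrays, 717 probes passed the adjusted threshold, 346 lower and 371 higher, and at an unadjusted p under 0.05 it had 9 members lower, against 8.84% of all genes. Asns, Mthfd2, Psat1, Shmt2 and Trib3 were past the adjusted threshold in that fit. That fit counts arrays of the same extracts as separate samples, so its p-values are too small. The ATF4 amino-acid median over genes of mean ratios was -0.39, ranged from -0.51 to -0.41 with each litter left out, and was -0.57 within slide 2. The chaperone median of 0.09 was 0.28 without litter 112, -0.0123 without litter 116 and 0.0255 without litter 121. The mean of 15 of the 38 members changed sign when 1 litter was left out. They were Cebpg, Creld2, Dnajb11, Hyou1, Slc3a2, Wars and the 9 whose ranges follow. Leaving out each litter gave means from -0.36 to 0.26 for Hsp90b1, from -1.29 to 0.12 for Nupr1, from -0.47 to 0.29 for Sdf2l1, from -0.56 to 0.28 for Atf4, from -0.0276 to 0.75 for Calr, from -0.0813 to 0.18 for Canx, from -1.43 to 0.12 for Chac1, from -0.26 to 0.12 for Ddit3 and from -0.10 to 0.20 for Slc7a3. Canx was -0.0197 under median centring, Nupr1 0.0726 within slide 1 and Hsp90b1 0.0695 with slide as a random block. Among the members followed through every setting, Atf6 (0.09), Herpud1 (-0.0278), Ddit3 (0.03), Hsp90b1 (0.50) and Sdf2l1 (0.44) had the other sign within slide 2. The causes were not tested. No depth is defined for arrays, and Slc7a3 was the member nearest to background.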
